A study of Homo sapiens with 23 samples.

Results

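The deposited peak lists of 2 histone marks, H3K36me3 and H3K4me3, were set against each other in H23 (NCI-H23), a long-established cell line from a human non-small cell lung cancer. Members were chosen by the immunoprecipitated target: 2 libraries of H3K36me3 and 2 of H3K4me3, which are 4 of the 23 samples of the series and 4 of the 22 with a peak list. All 4 libraries came from the same line. The H3K4me3 antibody was a mouse monoclonal and the H3K36me3 antibody a rabbit polyclonal. The treatment protocol names JQ1, an inhibitor of BET bromodomain proteins, or DMSO, but the labels tie neither to any library, and treatment was not compared. The labels give replicates 1 and 2 of each target without saying that they were separate cultures, so every spread given here is that between lists and may be technical.

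H3K4me3, trimethylation of lysine 4 of histone H3, is placed by the SET1 and MLL complexes and marks the promoters of active and poised genes as sharp regions over the transcription start. H3K36me3, trimethylation of lysine 36, is placed by SETD2, which travels with elongating RNA polymerase II, so that the mark builds up over the body of transcribed genes, away from the start. At an active gene the marks are therefore known to lie next to each other, the first at the start and the second downstream of it. The lists give positions in build hg19 without strand, and gene positions of that build were not used here, so regions are described by their place relative to each other and not by gene.

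The lists differed in kind. H3K36me3 had 148323 peaks in replicate 1 and 146180 in replicate 2, covering 207.6 Mb and 200.8 Mb, and H3K4me3 had 21580 and 22025 peaks, covering 41.5 Mb and 41.4 Mb. The median H3K36me3 peak was 610 and 604 bp wide with an authors' fold enrichment of 3.65 in both lists, against 1776 and 1743 bp and an enrichment of 61.6 and 67.4 for H3K4me3. H3K36me3 was thus called as many short, weak pieces and H3K4me3 as fewer, wider and stronger ones. Of the H3K36me3 peaks, 76.4% (replicate 1) and 80.7% (replicate 2) overlapped a peak of the other replicate, and of the H3K4me3 peaks 96.7% and 95.0%. Read depth is unknown. The 8 H3K4me3 peaks of replicate 1 on the mitochondrial chromosome were left out, and each remaining H3K4me3 peak is called a region.

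Overlap of the marks was compared first. H3K4me3 regions sharing at least 1 bp with an H3K36me3 peak made up 18.1% and 17.6% of H3K4me3 replicate 1, with H3K36me3 replicates 1 and 2, and 17.1% and 16.5% of H3K4me3 replicate 2. The mean was 17.3% ± 0.700 (SD between H3K4me3 lists, n = 2) and the SD between H3K36me3 lists was 0.378. When the H3K36me3 list was moved along each chromosome by 10 fixed shifts of 0.5 to 10 Mb to either side, the mean share was 15.3%. The ratio of observed to shifted overlap was 1.13 and lay between 1.10 and 1.16 over the 4 combinations of lists. Each combination was therefore only a little above its shifted mean, and each lay inside the range of its single shifts, for example 13.1% to 18.8% around the 18.1% of the first. An exact permutation test of 2 lists against 2 cannot give a two-sided p below 0.333, and regions are not replicates, so no test was made here or below.

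The small ratio hid a local pattern. Moving H3K36me3 by 1 kb raised the share of overlapping H3K4me3 regions from 17.3% to 20.2%, and moving it by 2 kb raised it to 23.2%. The share was 26.0% at 5 kb and 26.2% at 10 kb, then fell to 22.7% at 100 kb, 18.3% at 0.5 Mb, which was still above the unshifted share in all 4 combinations, 16.7% at 1 Mb and 13.1% at 10 Mb. H3K4me3 regions thus overlapped H3K36me3 less often at their own place than a few kb away, and more often than at 2 Mb and beyond. Counted by bases the dip was deeper: 6.82% of H3K4me3 bases lay under H3K36me3 without a shift, 22.8% at 5 kb and 8.63% at 10 Mb. By bases the unshifted value was therefore the lowest of all. The shape was the same in all 4 combinations of lists, as the plot of overlap by shift shows. Against shifts of 0.1 and 0.2 Mb in place of 0.5 to 10 Mb the ratio turned below 1, to 0.798, so its direction depends on the distance chosen. With the 10000 strongest peaks of each list by the authors' −log10 q it was 2.43. The shifts move peaks over the whole span of the H3K4me3 and H3K36me3 lists compared, including stretches where no list has a peak. The part this plays in the shifted values was not tested.

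**Figure D1:**
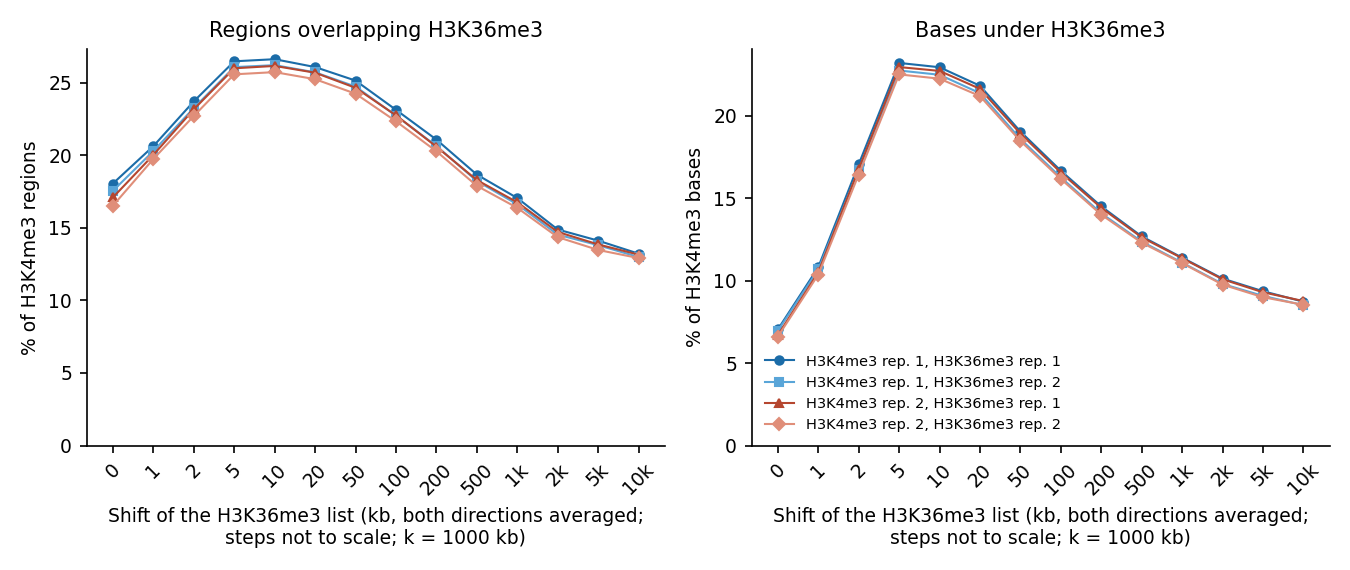
Share of H3K4me3 regions (left) and of H3K4me3 bases (right), in percent, that lay under H3K36me3 when the H3K36me3 list was moved by the distance on the horizontal axis, in kb, with both directions averaged and steps not to scale. Each line is 1 of the 4 combinations of an H3K4me3 and an H3K36me3 list; in all of them the value at 0 kb lies below those at 1 to 200 kb, with a top near 5 to 10 kb.

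The overlaps that did occur were of 2 kinds. Most were partial: between 3399 and 3645 regions in the 4 combinations, 15.4% to 16.9% of all, were partly covered, with a median of 16.5% to 17.1% of their bases under H3K36me3. These were wide regions, with medians of 2890 to 2946 bp, and strong ones, with a median fold enrichment of 87.1 to 96.4. Only 241 to 259 regions, 1.09% to 1.201%, lay wholly under H3K36me3. Those were short (medians of 333 to 369 bp) and weak (median enrichment of 3.03 to 3.26). H3K4me1, a mark of enhancers and promoter flanks, overlapped 95.4% to 98.8% of the wholly covered regions, against 83.9% and 93.3% of all H3K4me3 regions in replicates 1 and 2. For H3K27ac, a mark of active enhancers and promoters, their share of 73.4% to 77.3% was close to that of all regions, 77.8% and 81.3%. BRD2, a BET protein that binds acetylated histones, overlapped 4.42% and 5.02% of them in H3K4me3 replicate 1 and 9.13% and 9.80% in replicate 2, against 50.3% and 64.1% of all. Wholly covered regions made up 4.29% to 4.77% of the weakest of 4 equal bins of H3K4me3 by −log10 q, and at most 0.0908% of any other. In that bin, over the flank classes defined below, BRD2 overlapped 14.4% to 26.0% of regions in replicate 1. In replicate 2 it overlapped 22.2% to 36.9%. H3K27ac overlapped 34.99% of that bin with neither side marked, 70.4% with 1 side and 84.5% with both in replicate 1. In replicate 2 these shares were 41.2%, 75.2% and 81.6%. The H3K27ac share of the wholly covered regions thus lay above the first 2 classes of that bin and below the last, in both replicates. All regions are thus a stronger set than the wholly covered ones. At the partly covered regions BRD2 overlapped 83.0% to 91.6%.

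Distance gave the same picture in another measure. The median distance from an H3K4me3 region to the nearest H3K36me3 peak was 5481 and 5729 bp for H3K4me3 replicate 1, with H3K36me3 replicates 1 and 2, and 5860 and 6196 bp for H3K4me3 replicate 2. Their mean of 5817 bp had an SD of 299 bp between H3K4me3 lists (n = 2). For the shifted lists the mean of the medians was 68325 bp, and the lowest of all single shifts was 36792 bp. All 4 observed medians were therefore below every shifted one. In bins of distance, 21.4% of regions had their nearest H3K36me3 peak at 1 to 2000 bp, 9.60% at 2 to 5 kb, 7.41% at 5 to 10 kb and 7.70% at 10 to 20 kb. A further 17.5% had none within 100 kb. Regions that did not overlap or touch H3K36me3 lay a median of 12646 to 13693 bp from it. At a −log10 q of at least 5 in both lists the mean of the median distances rose to 11641 bp.

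The sides of each H3K4me3 region were examined next, because a promoter of a single transcribed gene is known to have the gene body on 1 side only. A side was called marked when any H3K36me3 base lay within 10 kb outside that edge. H3K36me3 was present on 1 side of 38.0%, 37.9%, 37.3% and 37.4% of H3K4me3 regions in the 4 combinations, against a mean of 11.1% for the shifted lists. The observed share was 3.38 to 3.41 times the shifted one. H3K36me3 on both sides was found at 18.3%, 17.9%, 18.1% and 17.5%, against 17.5% for the shifted lists, a ratio of 1.02 to 1.03. Neither side was marked at 43.7% to 45.1% of regions, against 71.4%. The excess over the shifted lists thus lay in the 1-sided class, while the share marked on both sides lay inside the range of single shifts, 14.6% to 21.2%. The SD between H3K4me3 lists was 0.420 percentage points for the 1-sided and 0.238 for the 2-sided share (n = 2 each). The plot of flanks sets these values side by side.

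**Figure D2:**
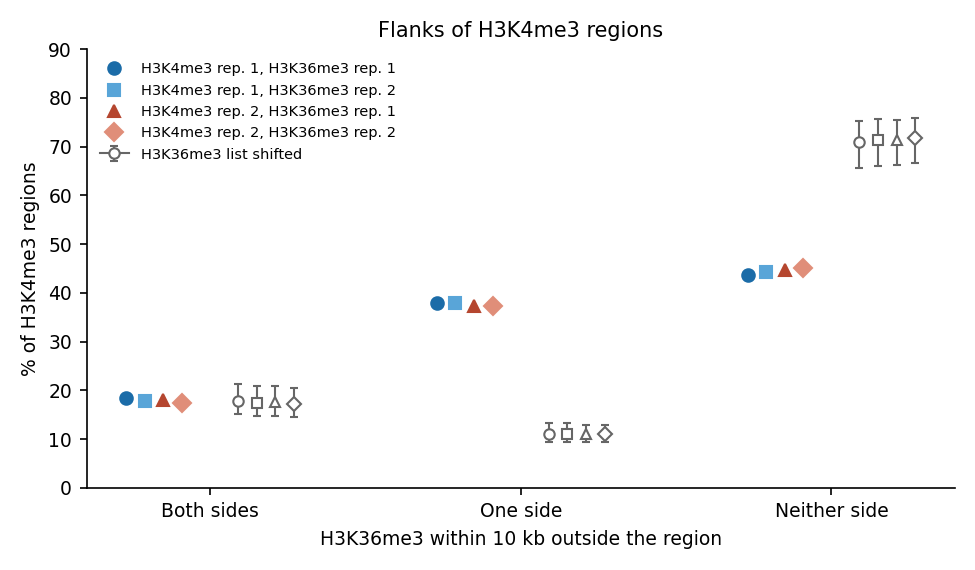
Percent of H3K4me3 regions with H3K36me3 within 10 kb outside both edges, 1 edge or neither. Filled symbols are the 4 combinations of lists, open symbols the mean over 10 fixed shifts of the H3K36me3 list for the same combination with bars from the lowest to the highest shift; the 1-sided class stands at 37.3% to 38.0%, above all its shifted values.

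The class of a region was largely the same whichever lists were used. Of the regions of H3K4me3 replicate 1, 19821 matched exactly 1 region of replicate 2 and the reverse. Of these, 18329 (92.5%) had the same class in all 4 combinations, 8466 with neither side marked, 6844 with 1 side and 3019 with both.

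For comparison, the other 2 methylation marks with broad lists were measured in the same way. H3K27me3, the mark of Polycomb repression, lay within 10 kb of either side at 25.1% and 27.1% of H3K4me3 regions in replicates 1 and 2, against 36.1% and 39.5% when shifted. H3K9me3, a mark of heterochromatin, did so at 34.9% and 38.4%, against 45.9% and 49.9%. For the second H3K9me3 library the number in the title is used throughout, since its description carries another. For H3K36me3 the shares were 56.3% and 54.9%, against 28.9% and 28.2%. Both other marks were below their shifted values in both replicates and H3K36me3 above. These H3K27me3 and H3K9me3 lists were longer (206815 to 277462 peaks) and covered less (125 to 172 Mb).

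The amount of H3K36me3 was then followed away from the region. Over all regions it covered a mean of 4.83% of each region's own bases, 11.2% of the first 0.5 kb outside an edge, 17.5% at 10 to 15 kb and 15.2% at 75 to 100 kb. The low point was thus inside the H3K4me3 region itself. The windows within 10 kb set the classes, so in them the values by class are a description. On the marked side of 1-sided regions H3K36me3 rose from 27.5% in the first 0.5 kb to 46.3% at 7.5 to 10 kb. Farther out, which the class did not use, it was 34.3% at 20 to 30 kb and 20.7% at 75 to 100 kb. On the unmarked side of the same regions it was 3.39% at 10 to 15 kb and 15.8% at 75 to 100 kb. The sides still differed 75 to 100 kb away: the lowest combination on the marked side was 20.4% and the highest on the other side 16.1%. Regions with neither side marked had 9.96% at that distance, below both. Stretches of H3K36me3 that cross the 10 kb limit tie the farther values to the class, and shifted lists were not profiled.

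**Figure D3:**
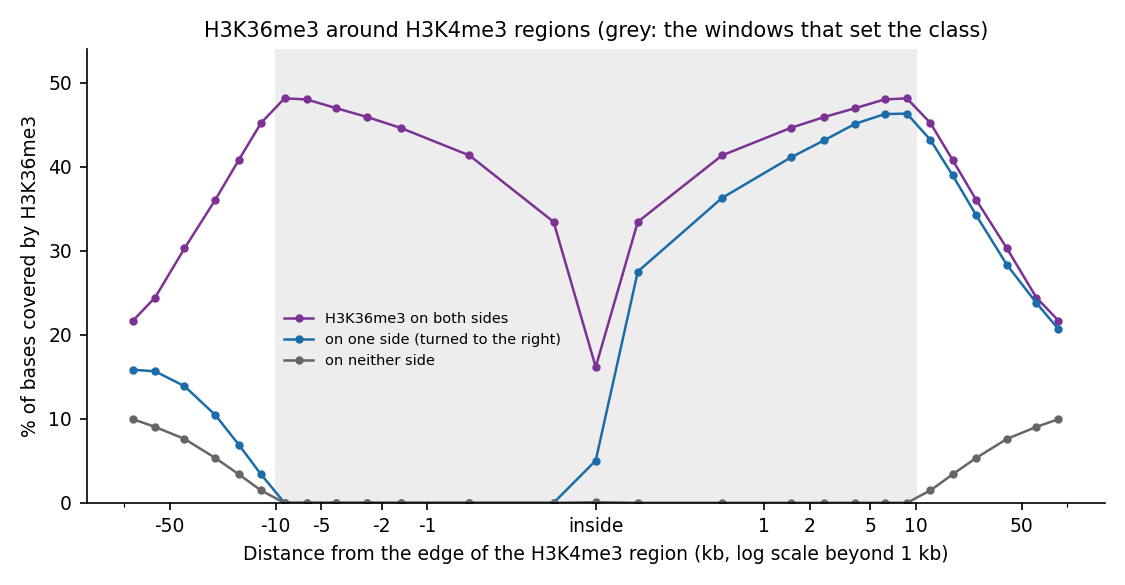
Mean percent of bases covered by H3K36me3 by distance from the edge of the H3K4me3 region, in kb on an axis that is logarithmic beyond 1 kb, for regions with H3K36me3 on both sides, 1 side (turned so that the marked side is on the right) or neither, averaged over the 4 combinations of lists. Grey marks the windows of 10 kb that set the class; both marked classes dip inside the region, to 16.2% for both sides and 5.03% for 1 side.

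The classes differed in the H3K4me3 regions themselves. Regions with neither side marked had a median width of 1098 to 1144 bp and a median enrichment of 31.5 to 31.8. Regions with 1 side marked had medians of 2179 to 2209 bp and an enrichment of 79.8 to 89.2, and those with both sides 2301 to 2342 bp and 77.0 to 86.6. Unmarked regions were therefore narrower and weaker, while the 1-sided and 2-sided classes differed from each other by far less. When each H3K4me3 list was cut by −log10 q into 4 bins of equal size, neither side was marked at 66.0% to 68.1% of the weakest bin and at 67.8% to 70.3% of the next. In the third bin the share was 31.4% to 33.1%, and in the strongest bin 8.77% to 9.94%. The 1-sided share rose along the same bins, from 17.2% to 18.4% in the weakest to 60.4% to 60.7% in the strongest. The 2-sided share did not rise throughout: it was 14.3% to 15.9%, then 7.30% to 8.14%, then 18.1% to 19.3%, then 29.5% to 30.9%.

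Other targets of the series were then counted at the H3K4me3 regions of each class, with lists of the same replicate number throughout. These counts were not used to set the classes. H3K27me3 overlapped 9.27% of all H3K4me3 regions in replicate 1 and 12.8% in replicate 2. With neither side marked the shares were 18.8% (1773 regions) and 24.6% (2444), with 1 side 2.49% (204) and 4.11% (338), and with both sides 0.581% (23) and 1.09% (42). H3K27me3 was thus found mostly where no H3K36me3 flanked the region, in both replicates, although those regions were narrower. The difference, neither minus both, was 20.9 percentage points as a mean over 8 combinations of lists, with values between 17.4 and 24.5. It was larger with H3K27me3 replicate 2, the longer list, than with replicate 1 (24.0 against 17.8). It fell to 7.32 points when only peaks at a −log10 q of at least 5 were kept in the lists, and to 9.93 points when at least 50% of the region had to be covered, with the direction kept.

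The H3K27me3 difference was present in each bin of H3K4me3 strength. In replicate 1 the share with neither side marked was 13.1%, 25.8%, 19.6% and 6.24% from the weakest to the strongest bin, against 0.698%, 1.59%, 0.480% and 0.309% with both sides marked. In replicate 2 it was 16.9%, 33.0%, 26.5% and 10.3%, against 0.889%, 2.99%, 1.304% and 0.599%. The second bin was the highest in both replicates and in both classes.

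BRD2 and the acetylation marks ran the other way. BRD2 overlapped 50.3% of all regions in replicate 1 and 64.1% in replicate 2: 28.0% and 42.2% with neither side marked, 68.0% and 83.4% with 1 side, and 66.8% and 79.2% with both. H3K27ac overlapped 77.8% and 81.3% of all regions, rising from 55.2% and 63.4% with neither side to 94.9% and 96.1% with 1 side and 96.3% and 95.9% with both. Below the strongest bin of H3K4me3, from the weakest up, H3K27ac overlapped 34.99%, 56.2% and 82.8% with neither side marked in replicate 1. With both sides marked it overlapped 84.5%, 97.3% and 99.7%. In replicate 2 the shares were 41.2%, 65.4% and 94.6%, against 81.6%, 97.0% and 100%. The gap was thus present in these bins and widest in the weakest. Only within the strongest bin was most of it gone, at 96.9% and 100% with neither side against 100% in both replicates with both. A share this close to its upper limit leaves little room for a gap. For BRD2 the shares with neither side marked were 14.4%, 29.3%, 45.4% and 56.7% from the weakest to the strongest bin in replicate 1, against 24.2%, 58.3%, 78.3% and 84.2% with both. In replicate 2 they were 22.2%, 42.9%, 70.4% and 85.0%, against 31.5%, 71.9%, 91.4% and 96.2%. BRD2 was thus lower at unmarked regions in every bin of both replicates, with the smallest gap in the weakest bin.

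The histone H4 acetylation marks, which open chromatin and are bound by BET bromodomains, were also lower at unmarked regions. H4K5acK8ac overlapped 83.6% and 86.8% of all regions, with 69.2% and 77.1% where neither side was marked, 95.8% and 96.1% with 1 side and 92.4% and 91.9% with both. H4K5ac overlapped 84.2% and 82.6% of all, with 71.0% and 69.0%, 95.2% and 94.6%, and 92.5% and 91.8% in the same order. H4K12ac overlapped 81.4% and 79.6% of all, and 68.8% and 66.1% with neither side. H4K8ac overlapped 76.4% and 54.8% of all, and 60.04% and 39.3% with neither side, so its replicates differed widely. For H4K5acK8ac, H4K5ac and H4K12ac the 1-sided class was slightly above the 2-sided one in both replicates, by 1.99 to 4.19 percentage points. H4K8ac had the same sign with smaller differences, 1.35 and 0.540 points.

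H3K4me1 and H3K9me3 completed the set. H3K4me1 overlapped 83.9% and 93.3% of all regions, with 71.8% and 87.2% where neither side was marked and 96.2% and 99.1% where both were. H3K9me3 was rare everywhere: it overlapped 3.43% and 4.01% of all regions, 4.45% and 5.19% with neither side marked, and 2.35% and 3.32% with both. The plot of targets by flank shows H3K27me3 and H3K9me3 with their highest share at unmarked regions and the 7 others with their lowest.

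**Figure D4:**
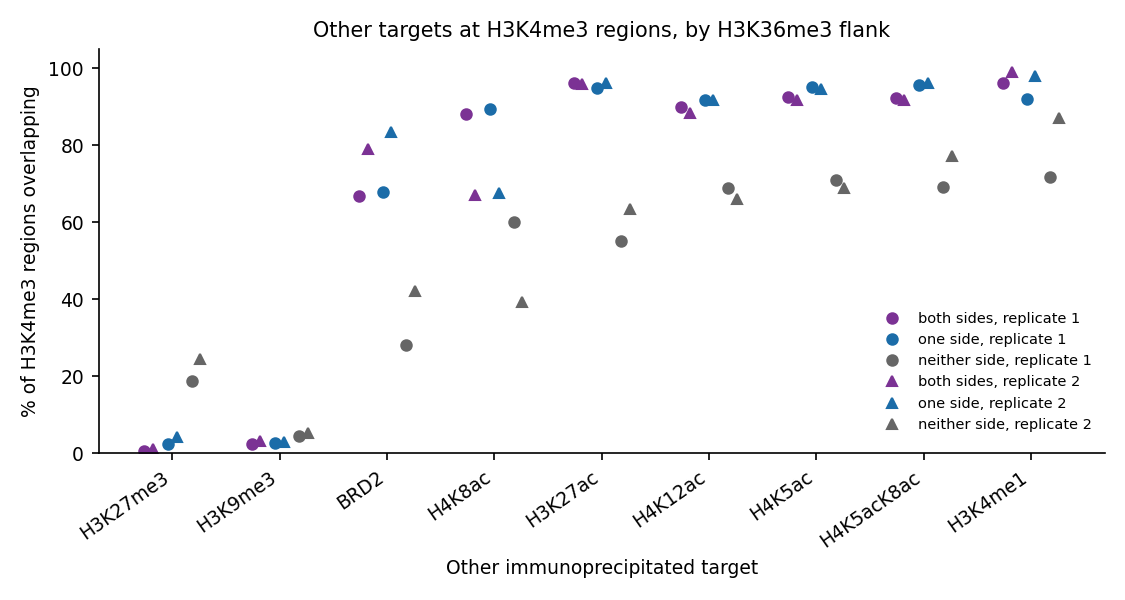
Percent of H3K4me3 regions that overlapped a peak of each other target, by whether H3K36me3 lay within 10 kb of both sides, 1 side or neither. Circles are replicate 1 and triangles replicate 2, each with H3K4me3, H3K36me3 and the target of the same replicate number; H3K27me3 reaches 18.8% and 24.6% with neither side marked against 0.581% and 1.09% with both.

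The 1-sided regions allowed the sides of 1 region to be compared with each other, so that differences between regions do not enter. In the 10 kb outside the marked edge H3K27me3 covered 0.195% of bases in replicate 1 and 0.248% in replicate 2, against 1.86% and 1.79% on the other side. H3K4me1 was higher on the marked side, at 21.8% and 38.5% against 10.7% and 19.9%, and so was H3K27ac, at 18.4% and 16.0% against 9.77% and 12.96%. The H4 marks were lower there. H4K5acK8ac covered 7.51% and 7.83% on the marked side against 10.3% and 12.2%, H4K5ac 8.50% and 8.55% against 11.8% and 12.2%, H4K8ac 8.12% and 3.36% against 10.4% and 5.76%, and H4K12ac 5.71% and 5.20% against 6.51% and 6.01%. The sign was thus the same in both replicates for each, with H3K27ac and H4 acetylation on opposite sides. BRD2 was lower on the marked side too, with 1.11% and 1.85% against 1.22% and 2.18%, and so was H3K9me3, with 3.14% and 4.04% against 3.29% and 4.44%. The H3K4me3 summit, the position of the highest signal in a peak, lay in the part of the region toward the marked side in 45.7% and 47.4% of these regions. H3K36me3 reached into 24.4% and 22.7% of 1-sided regions and otherwise began a median of 2036 and 2059 bp from the edge.

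Regions with H3K36me3 on both sides fell into 2 kinds once H3K36me3 peaks were joined into runs across gaps of up to 3 kb. At 24.4% to 24.7% of them the nearest peaks on both sides belonged to 1 run, in which the H3K4me3 region may itself lie in a gap of up to 3 kb between peaks. Runs were 73.6% and 73.1% covered by peaks in the H3K36me3 replicates. These regions were narrow (medians of 1427 to 1549 bp) and weak (median enrichment of 19.0 to 29.2), and their runs were long (medians of 26107 to 27750 bp). A wide region free of H3K36me3 splits a run, so the rule itself favours narrow regions in this kind. The part this plays in their strength and in the other targets below was not tested. At the other 75.3% to 75.6% the sides belonged to different runs. Those regions were wide (2430 to 2473 bp) and strong (81.3 to 90.9), with a longer run of 17513 to 18121 bp and a shorter one of 3607 to 3669 bp. BRD2 overlapped 48.4% and 48.5% of the first kind in H3K4me3 replicate 1 and 57.0% and 58.1% in replicate 2, close to or a little under its shares of all regions, 50.3% and 64.1%. Of the second kind it overlapped 72.8% and 72.9%, and 86.0% and 86.4%, while H3K4me1 overlapped 95.8% to 99.2% of both kinds. H4K5acK8ac overlapped 75.6% to 77.0% of the first kind and 97.2% to 97.6% of the second.

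Against the shifted lists the kinds also parted. A region between different runs was found at 13.2% to 13.8% of all H3K4me3 regions, against shifted means of 5.97% to 6.15%. A region within 1 run was found at 4.28% to 4.54%, against 11.3% to 11.7%, a mean ratio of 0.386. The H3K36me3 share on both sides, close to that of the shifted lists in total, was thus made of more regions between runs and fewer within a run. A gap in H3K36me3 wider than 3 kb over an H3K4me3 region splits a run by construction. With a gap of 10 kb, an alternative added after seeing the data, the ratio for 1 run was 0.901.

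H3K36me3 runs were described on their own and by what lay at their ends. Joined at 3 kb, the lists gave 29060 and 28782 runs with a total length of 282 and 275 Mb. The median run was 3264 and 3208 bp, a mean of 3236 bp ± 39.6 (SD, n = 2), and 34.1% and 34.0% of runs were single peaks. The run length at which longer runs hold 50% of the total (N50) was 28621 and 27954 bp, and the longest run was 294657 and 240231 bp. Runs of at least 10 kb, 7781 and 7646 in number, were 26.8% and 26.6% of runs and held 80.5% and 80.1% of their length. A minority of long runs thus held most of the marked sequence. The median depends on the gap, being 1370 bp at 1 kb and 11813 bp at 10 kb.

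H3K4me3 lay within 10 kb of at least 1 end, outside or inside, of 64.3% to 64.4% of runs of at least 10 kb in the 4 combinations. The mean for shifted lists was 28.9% to 29.2%, with single shifts up to 35.2%. Both ends had H3K4me3 in 17.4% to 17.5%, 1 end in 46.9% to 47.0%, neither end but the inside in 0.144% to 0.283%, and no part in 35.4% to 35.6%. Where long runs had H3K4me3 at an end, it was thus mostly at 1 end. An end reaches 10 kb into the run, so runs of up to 20 kb have no inside apart from their ends and the rule itself keeps the share with H3K4me3 only inside low. Among runs of 30 to 100 kb that share was 0.255% to 0.620%, and at 100 kb and over 3.28% to 4.96%. The share with H3K4me3 at an end grew with run length, from 22.4% to 23.4% of runs under 1 kb, through 40.2% to 40.5% at 3 to 10 kb, to 73.0% to 77.0% at 100 kb and over (141 and 122 runs). The stretch searched for H3K4me3 also grows with length, for runs of up to 20 kb. The part this plays in the rise was not tested. Long runs with both ends marked had a median length of 24633 to 24711 bp and a median enrichment of their strongest peak of 11.5 to 11.7. Those with 1 end marked had 22709 to 23191 bp and 9.45 to 9.49, and those with no H3K4me3 18243 to 18384 bp and 6.66 to 6.74.

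**Figure D5:**
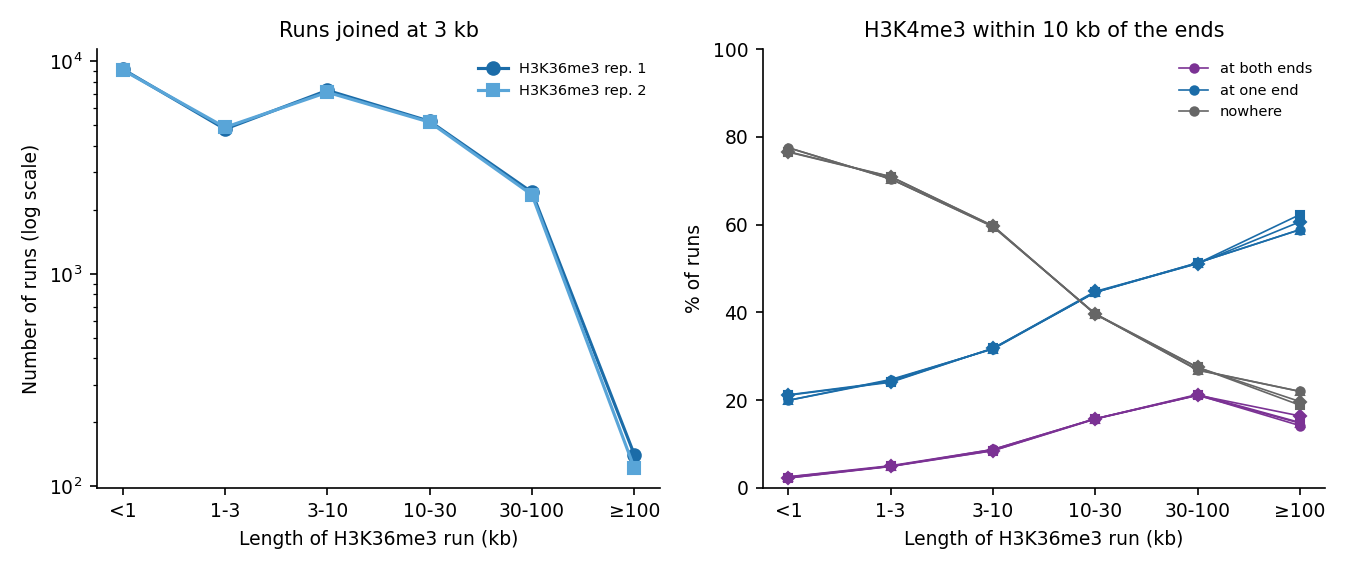
Left, number of H3K36me3 runs joined across gaps of up to 3 kb, by run length in kb, for both H3K36me3 lists on a logarithmic axis. Right, percent of runs with an H3K4me3 region within 10 kb of both ends, of 1 end, or with none at the ends or inside, for the 4 combinations of lists drawn as separate lines; the share with none falls from 76.6% to 77.6% below 1 kb to 18.9% to 21.99% at 100 kb and over.

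Long runs without H3K4me3 carried H3K27ac, H3K4me1 and BRD2 less often and H3K9me3 more often than those with it at both ends. With lists of the H3K36me3 replicate number and H3K4me3 of the same number, H3K27ac overlapped 59.8% and 41.6% of runs without H3K4me3, 78.6% and 62.3% of those with it at 1 end, and 93.2% and 83.1% of those with it at both. H3K4me1 overlapped 53.1% and 73.1%, 81.7% and 91.2%, and 91.6% and 96.4% in the same order. BRD2 overlapped 27.5% and 15.7%, 36.7% and 22.7%, and 48.5% and 37.0%. These 3 rose in both replicates from none to both ends. H3K9me3 overlapped 34.5% and 38.0% of runs without H3K4me3, 34.5% and 36.4% of those with it at 1 end, and 23.7% and 24.1% of those with it at both. By bases it was 2.65% and 3.54%, 3.62% and 4.62%, and 2.79% and 3.27%, with no such order. The runs without H3K4me3 were also shorter, and shorter runs have less room for any peak; the part this plays was not tested. The bases covered by H3K27ac, which do not grow with length in that way, were 7.29% and 5.69%, 13.6% and 9.51%, and 23.6% and 15.7%. Since an end reaches into the run, runs with H3K4me3 at an end can hold the H3K4me3 region and other peaks over it. Those peaks enter both the shares of runs and the bases, and the part they play was not tested. H3K27me3 covered at most 0.153% of run bases in any of these 3 classes.

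H3K36me3 peaks overlapping an H3K4me3 region were 2.77% to 2.92% of all H3K36me3 peaks. The H3K4me3 lists were far shorter and covered 1.38% of the span of called peaks over all lists, 3002 Mb, which keeps this share low. It was not compared with shifted lists. The overlapping peaks had a median enrichment of 5.82 to 5.92 and a median width of 1896 to 1926 bp. Peaks 1 bp to 2 kb away had 3.91 to 3.96 and 735 to 745 bp, and those over 100 kb away 3.32 to 3.37 and 487 to 490 bp. H3K36me3 peaks were thus stronger and wider close to H3K4me3, and a wider peak is also more likely to reach a region. Most H3K36me3 peaks lay farther off, with 29.4% to 29.7% at 20 to 50 kb from the nearest H3K4me3 region.

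Chromosomes differed in how H3K4me3 regions were flanked. On chromosome 19 neither side was marked at 26.8% of regions in replicate 1 and 28.6% in replicate 2, the lowest shares, and on chromosome 4 at 59.03% and 60.2%, the highest among autosomes. Chromosome 19 also had the densest H3K4me3, with 26.1 and 26.3 regions per Mb against 4.32 and 4.54 on chromosome 4. It was the most covered by H3K36me3, with 17.7% and 17.3% against 3.46% and 3.26%. Its median run was the longest of the autosomes, at 6929 and 6839 bp. On chromosome X neither side was marked at 53.1% and 55.0%.

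The H3K4me3 regions of highest enrichment in each class were taken as single places, among those with the same class in all 4 combinations. Being chosen for strength, they need not be typical of their class. Of the regions marked on both sides, chr12:133336357-133339755 (hg19, replicate 1) was 3399 bp wide with an enrichment of 111 and 122 in the H3K4me3 replicates, and had 10000 bp of H3K36me3 below it and 4351 bp above it within 10 kb in replicate 1, and 9750 and 4097 bp in replicate 2. The other regions of this class were chr2:130937662-130941477 and chr19:5902472-5905750, the latter with 5193 bp below and only 945 bp above in replicate 1. Of the 1-sided regions, chr3:9772201-9774972 had no H3K36me3 below it and 9796 and 9781 bp above it in replicates 1 and 2. The mirror case was chr16:28856239-28858938, with 7491 and 7159 bp below and none above, and chr2:112640452-112642867 had 6524 and 8179 bp below. The lists carry no strand, so below and above mean lower and higher coordinates.

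The unmarked regions chosen by the same rank had slightly lower enrichment, 108 to 110 in replicate 1 and 119 to 121 in replicate 2, against 111 to 112 and 122 to 123 for the 6 marked ones. The region chr15:73924039-73926527 had an enrichment of 110 and 121, with the nearest H3K36me3 at 27121 and 12998 bp. At chr18:18688544-18692929, a region 4386 bp wide, it lay at 13333 and 26221 bp. The region chr7:75931533-75934624 held H3K36me3 inside it, in a run of 1300 and 1147 bp, and none in either window, so the rule on sides placed it among the unmarked. All 9 regions had H3K4me1, H3K27ac, H4K5acK8ac, H4K5ac and H4K12ac in both replicates, and none had H3K27me3 or H3K9me3. For comparison, unmarked regions of the strongest H3K4me3 bin had H3K27ac at 96.9% and 100% in replicates 1 and 2. H3K27me3 was found at 6.24% and 10.3% of them.

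The 5 longest stretches shared by H3K36me3 runs of both lists, called runs here, included runs with H3K4me3 at both ends, at 1 end and nowhere. Their ends are those of the shared stretch, and a run of a single list can reach beyond them. The longest runs of the single lists were 294657 and 240231 bp. On chr5:14271065-14509435, 238371 bp and the longest, H3K36me3 covered 92.8% and 93.5% in replicates 1 and 2, yet no H3K4me3 region lay inside it. The nearest H3K4me3 regions were 113388 and 113507 bp below and 71861 and 71788 bp above. On chr6:151188358-151425825 H3K4me3 reached the lower end and none lay within 63492 bp of the upper end. The runs chr2:61406420-61621771 and chr17:15904303-16101413 also had H3K4me3 at their lower end, while the upper ends were 74674 bp or more and 14676 bp or more away from any. Only chr12:120107437-120314060 had it at both, 363 and 419 bp from the lower end and overlapping the upper one. All 5 overlapped H3K4me1, H3K27ac, H4K5ac, H4K8ac, H4K12ac and also H3K9me3 in both replicates. H3K27me3 overlapped the run on chromosome 17 in both replicates and that on chromosome 6 in replicate 2. So long a run has room for most targets: of all runs of at least 100 kb, H3K27ac overlapped 99.3% and 95.9%, H3K9me3 75.2% and 78.7%, and H3K27me3 2.84% and 12.3% in replicates 1 and 2.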

How the data were processed

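Chromatin immunoprecipitation with sequencing gave 1 deposited list per library in the narrowPeak layout. The submitters' processing notes name BWA, MACS2 and build hg19; versions, settings and the control are not given in the sources used here. In the deposited lists fold enrichment is a ratio per peak, significance is given by the authors as −log10 p and −log10 q, and the deposited score was not used. The lowest −log10 p of the 4 lists was 2.00 to 2.11, and 0.367% to 0.690% of peaks had a q above 0.05. Lists hold no read numbers, so depth is unknown and a deeper library can give a longer list.

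Overlap (at least 1 bp), distance, sides within 10 kb and runs joined at 3 kb were computed for each of the 4 combinations of lists with Python 3.11.15, numpy 2.4.6 and pandas 2.3.3, after the functions were tested on simulated intervals; plots used matplotlib 3.10.9. Shifts of 0.5, 1, 2, 5 and 10 Mb to either side wrapped, on each chromosome, at the ends of the span of the lists compared. Shifts are fixed, not random, and give no p. No library was left out of the groups, and the input library was not used. Members, targets and lists were chosen with earlier results of these data known. Named regions are, for each class that held in all 4 combinations, the 3 with the highest mean rank of the authors' fold enrichment. Named runs are the 5 longest stretches shared by runs of both H3K36me3 lists. Chromosome 8 was left out of both. The gene tables given were of assembly GRCh38.p14, so gene names, planned marker genes and sequences were not analysed here. Alternatives covered peak thresholds, shared calls, windows, gaps, overlap rules and leaving out each library.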

Additional observations from a re-analysis of the deposited data

How the results depend on the processing

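Of 86 alternatives, 81 planned and 5 added after seeing the data, 52 stayed within the spread between lists, 33 moved by more than it and 1 reversed. Leaving out a library made up 32 of the 52. With 2 lists per target that change is always smaller than the SD between lists, so these 32 could not be counted as moved. The reversal was the ratio of overlap to shifted lists, 0.798 with shifts of 0.1 and 0.2 Mb. With a −log10 q of at least 5 in the lists, overlap was 14.1%, the ratio 1.17, median distance 11641 bp, both sides 12.5%, 1 side 35.6%, median run 3619 bp, long runs with H3K4me3 at an end 63.8% and the H3K27me3 difference 7.32 points; at 1.3 only the run ends moved (64.3%). With regions called in both replicates these were 14.0%, 1.04, 7651 bp, 15.6%, 37.1%, 64.2% for run ends and 14.7 points, the median run staying within its spread. Requiring 50% of a region covered gave 2.85% overlap and 9.93 points for H3K27me3, the 10000 strongest peaks a ratio of 2.43, and the summit in place of edges a distance of 6743 bp. Windows of 5 kb gave 12.6% for both sides and 35.6% for 1 side, windows of 20 kb 25.1% and 38.2%, and at least 1 kb of H3K36me3 per window 12.6% and 35.2%. Joining H3K4me3 regions at 1 kb gave 16.6% for both sides. Gaps of 1 and 10 kb gave runs of 1370 and 11813 bp and run ends of 59.7% and 70.7%, and a limit of 5 kb to the end 57.6%. The cause of these moves was not tested.

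Leaving out 1 library changed no direction. Overlap was 16.8% to 17.8%, the ratio 1.11 to 1.16, distance 5605 to 6028 bp, both sides 17.7% to 18.2%, 1 side 37.4% to 37.9%, the median run 3208 to 3264 bp, run ends 64.3% to 64.4% and the H3K27me3 difference 17.8 to 24.0 points. Pairing was looked for by correlating deviations from each mark's mean between libraries of the same number, over 15211 bins of 100000 bp. The correlation was -0.000936. It compares lists of different marks, so it cannot show whether libraries of the same number shared a culture. The replicate block, which keeps only same-numbered lists, gave 17.3%, 1.13, 5839 bp, 17.9%, 37.7%, 64.4% and 20.9 points in the same order, without the run length, which uses 1 mark. Read depth is unknown, so an absent H3K36me3 flank is a peak not called at this depth, and the run lengths depend on the number of weak peaks called.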
